A study of Danio rerio with 15 samples.

Results

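A set of 136 zebrafish transcripts was higher in embryos kept at 0 or 5 μg/l dibutyl phthalate (DBP) than in embryos kept at 10, 50 or 100 μg/l, without overlap between the libraries. These 136 were drawn from the 46488 transcripts of the counts table, of which 25977 had a mean level of at least 1 CPM (a count divided by the total of its library and scaled to a common total) and a length under 9000 bases. A transcript was taken when its lowest CPM in the 5 libraries at 0 and 5 μg/l lay above its highest CPM in the 9 libraries at 10, 50 and 100 μg/l, and when the mean of the 5 was at least 1.5 times the mean of the 9. The members were thus chosen by these measured CPM values, and the difference between the 5 and the 9 libraries is a description of the set that carries no test.

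Each sample was a pool of 10 AB strain embryos, exposed in water for 120 h from the 256-cell stage to the protruding mouth stage. The DBP concentrations were 0, 5, 10, 50 and 100 μg/l, and the controls had no DBP. Each concentration had 3 poly-A libraries, which the study took by RNA quality from 5 replicate beakers. One text of the labels gives another value for the 50 μg/l dose, and 50 μg/l, the value of the sample titles, was used. Libraries are named by dose and replicate letter, so that 10C is replicate C at 10 μg/l.

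DBP is a phthalate ester used to soften plastics, and it is known in mammals for disturbing male sexual development. By the protruding mouth stage a zebrafish larva has formed most organs, so a pool of whole embryos holds RNA from many cell types at once. A gene can give several transcripts that differ by exon use, start or end, and a library of short reads assigns each read to the transcript or transcripts that it fits. A fall of one transcript can therefore accompany a fall of the gene or a change in how reads were shared among its transcripts. In whole embryos, fewer cells of a type and less RNA per cell cannot be told apart. No source used here links any of the 136 identifiers to a gene, so these transcripts are given by length and level, and only 2 of them by identifier.

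Libraries 0B, 10C and 100E stood apart over these transcripts. The control 0B was taken as the outlier control that the study excluded, and the choice did not use it. This library was below all 5 libraries at 0 and 5 μg/l in 101 of the 136 transcripts, or 74.3%, against 35.3% of the 25977. The choice had used the lowest of these 5, so this share is not independent of it. In the reverse choice of 71 transcripts, described below, 0B lay above all 5 in 52, or 73.2%, against 24.1% of the 25977. A place of 0B outside the 5 was thus not particular to the 136. Libraries 10C and 100E had the highest values among the 9 libraries from 10 μg/l upwards. The sum of CPM over the 136 transcripts was 4203 to 4514 in the 5 libraries at 0 and 5 μg/l, 2320 in 10C, 2060 in 100E, 2104 in 0B and 1260 to 1558 in the remaining 7. A large part of the sums of the 5 came from ENSDART00000173554.2, described below. Without it they were 3232 to 3465, with 2091 in 0B and the same values in the 9. Total counts were 17.2 to 28.0 M in the 14 libraries, with a median of 23.5 M, and 24.0 M in 0B. Libraries 10C and 100E, with 26.2 and 28.0 M, were the deepest of the 9, and the part of depth in their higher values was not tested. Over all transcripts that passed the count filter, the deviations of 10C and 100E from their dose means correlated at 0.37. Their shift was thus not confined to these 136.

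The word lost held literally for few of these transcripts. Of the 136, 7 were at 0 in each of the 9 libraries at 10 to 100 μg/l, 45 were at 0 in 1 to 8 of them, and 84 were above 0 in all 9. The mean at 0 and 5 μg/l was at least 2 times the mean at 10 to 100 μg/l in 71 transcripts, at least 5 times in 30 and at least 10 times in 18, the 7 at 0 included in each count. The median fold was 1.99 over the 129 transcripts with any count at 10 to 100 μg/l, and 2.05 over all 136 when the 7 were set at the bound given below. Most of the set thus fell part of the way and stayed measurable at 10 to 100 μg/l.

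**Figure D1:**
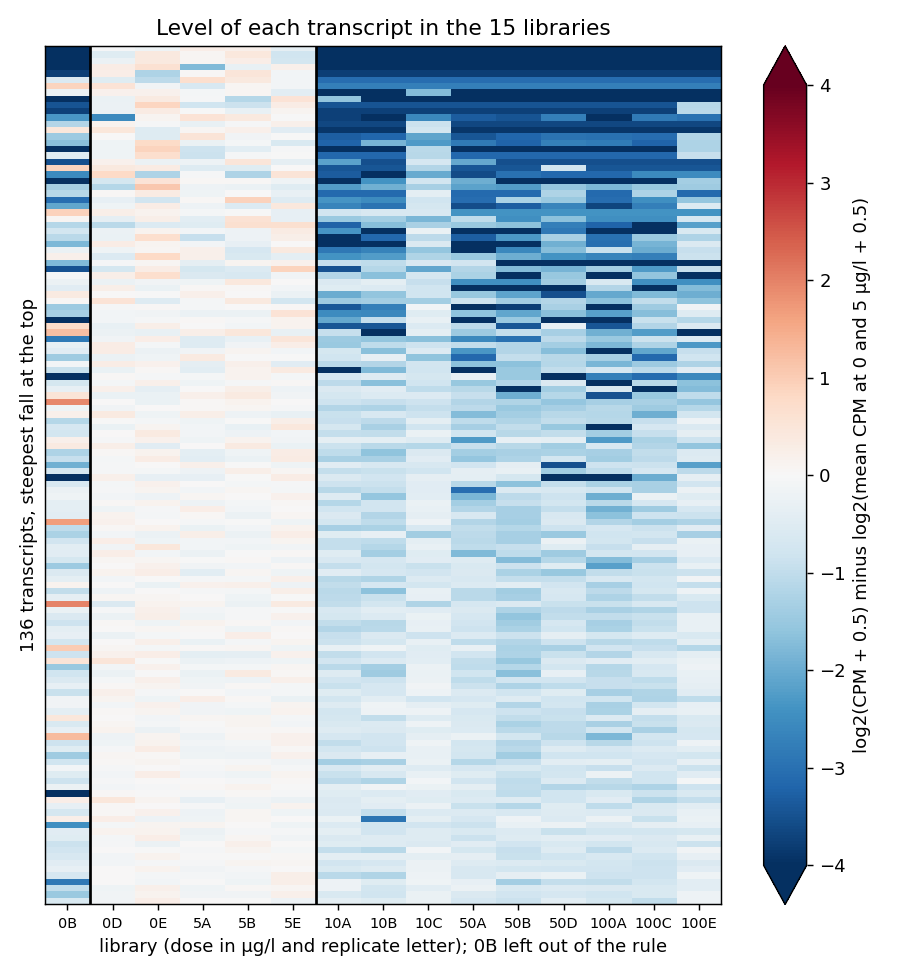
Level of each of the 136 transcripts (rows, steepest fall at the top) in the 15 libraries (columns), as log2(CPM + 0.5) minus the log2 of the mean CPM at 0 and 5 μg/l plus 0.5, with colours capped at -4 and 4. The 9 right-hand columns are blue throughout because of how the transcripts were chosen, 10C and 100E are paler, and 0B, at the left, is blue in most rows.

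Not overlapping in this direction was met by 301 of the 25977 transcripts, which is 1.16%, and the fold threshold then left 136. The reverse choice, with the 9 libraries above the 5 and the same thresholds, gave 71 transcripts, from 178 that did not overlap (0.685%). In that reverse set 6 transcripts were at 0 in all 5 libraries at 0 and 5 μg/l.

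Among the 7 transcripts at 0 in all 9 libraries, the most abundant was ENSDART00000173554.2, of 744 bases. Its CPM was 1026 in 0D, 940 in 0E, 1282 in 5A, 1234 in 5B and 831 in 5E, and 0 in each library at 10, 50 and 100 μg/l. In counts, these 5 values were 26514, 24375, 30450, 24964 and 21064. With 3 counts per library as the upper limit behind a 0, or 0.174 CPM in the shallowest of the 9, its mean at 0 and 5 μg/l was at least 6102-fold higher. In the control 0B it had 12.5 CPM, from 300 counts, far under the 2 other controls. Whether its reads passed to a related transcript of the same gene was not tested, because the 136 transcripts are not linked to genes here.

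The 2 transcripts of 855 bases followed each other closely. In 0D, 0E, 5A, 5B and 5E the first had 28.8, 52.9, 42.5, 53.4 and 22.9 CPM. The second had 32.8, 50.9, 41.1, 46.7 and 23.2 CPM in the same libraries. Both were at 0 in all 9 libraries at 10 to 100 μg/l and also in 0B. Transcripts of equal length with near-equal values can share reads, and the division of reads between them is uncertain.

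The remaining 4 transcripts at 0 in all 9 libraries had 586, 666, 622 and 798 bases. The transcript of 586 bases had 47.1, 58.1, 10.8, 31.0 and 43.7 CPM in 0D, 0E, 5A, 5B and 5E, and 0.225 CPM in 0B. The other 3 were low, with means of 6.32, 3.65 and 2.84 CPM at 0 and 5 μg/l. The transcript of 666 bases was at 0 in 0B too, while those of 622 and 798 bases had 2.31 and 5.63 CPM there, within or above their range in the 5. With the per-library limit on a count of 0, the fold of these 4 was at least 219, 36.3, 21.0 and 16.3. Of the 7 transcripts, 3 were thus at 0 in the control 0B, 2 were far under the other controls, at 12.5 and 0.225 CPM, and 2 kept a control level.

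The 45 transcripts at 0 in 1 to 8 of the 9 libraries had a median fold of 4.38, from 1.57 to 33.5. The most abundant of them, of 837 bases, had 218 CPM in 0D, 192 in 0E, 165 in 5A, 142 in 5B and 180 in 5E. It was at 0 in 10A, 10B and 50B, and had 4.52 CPM in 50A, 46.6 in 50D, 21.8 in 100A and 49.2 in 100C. In 10C and 100E it had 121 CPM each, just under the lowest library at 5 μg/l, and in 0B it had 51.5 CPM. Libraries of one dose therefore ranged from 0 to 121 CPM at 10 μg/l.

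Over all 136 transcripts, 9 were at 0 in every library at 10 μg/l, 17 were so at 50 μg/l, and 15 were so at 100 μg/l. At 10 μg/l, 107 were above 0 in all 3 libraries. The same count was 95 for the 50 μg/l libraries and 93 for those of 100 μg/l. The share of the set that could still be measured in every library was thus highest at 10 μg/l. The same share over the 25977 transcripts was not computed. Transcripts above 0 in any library of a dose numbered 127, 119 and 121 of the set at 10, 50 and 100 μg/l. Over the 25977 they numbered 25850, 25813 and 25823, in the same order. By this measure, the highest count was at 10 μg/l in both. Relative to the number of transcripts, the differences between doses were larger in the set, and this was not tested. Single libraries differed too, with 10 of the 136 at 0 in 10C and 36 in 100A, the shallowest library at 17.2 M. The parts of dose, library and depth in these counts were not tested.

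The 84 transcripts above 0 in all 9 libraries had a median fold of 1.79, from 1.501 to 11.8. The transcript of the set with the highest mean CPM over the 14 libraries, ENSDART00000159169.3 of 4035 bases, was one of them. At 0 and 5 μg/l alone its mean was 539 CPM, below the 1062 CPM of ENSDART00000173554.2. The CPM of ENSDART00000159169.3 was 523 in 0D, 541 in 0E, 549 in 5A, 525 in 5B and 558 in 5E. At 10 μg/l it had 258, 235 and 495 CPM in replicates A, B and C. At 50 μg/l it had 319, 264 and 371 CPM in replicates A, B and D, and at 100 μg/l 272, 312 and 514 CPM in replicates A, C and E. The gap between 523, the lowest value at 0 and 5 μg/l, and 514, the highest at 10 to 100 μg/l, was small. Library 100E set the 514, with 10C close below. In 0B the level was 304 CPM, inside the range of the 9. Its mean at 0 and 5 μg/l was 1.60 times that at 10 to 100 μg/l.

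Other abundant transcripts differed in which libraries were low. A transcript of 3033 bases had 112, 109, 107, 115 and 106 CPM in 0D, 0E, 5A, 5B and 5E, and between 53.5 and 79.3 CPM in the 9 others, with 10C and 100E at 79.3 and 72.2. In 0B it was listed at 0, under every other library. A transcript of 612 bases, the most abundant of 3 with that length, had 122, 114, 112, 130 and 113 CPM in the same 5 libraries. It had 73.3, 81.8 and 72.6 CPM in 10A, 10B and 10C, then 93.2, 41.9 and 0 CPM in 50A, 50B and 50D. At 100 μg/l it had 17.5, 13.5 and 19.5 CPM, and in 0B it was at 0. The level at 100 μg/l lay below each library at 10 μg/l, but the 3 libraries at 50 μg/l ranged from 0 to above the libraries at 10 μg/l.

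A transcript of 489 bases went the other way in 0B. It had 114, 111, 129, 113 and 94.99 CPM in 0D, 0E, 5A, 5B and 5E. In the 9 it had from 9.40 to 64.5 CPM, and in 0B 145 CPM. A transcript of 306 bases had from 96.6 to 113 CPM in the 5, at most 54.7 CPM in the 9 and 94.1 CPM in 0B. For these 2 the third control was near to or above the other controls.

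**Figure D2:**
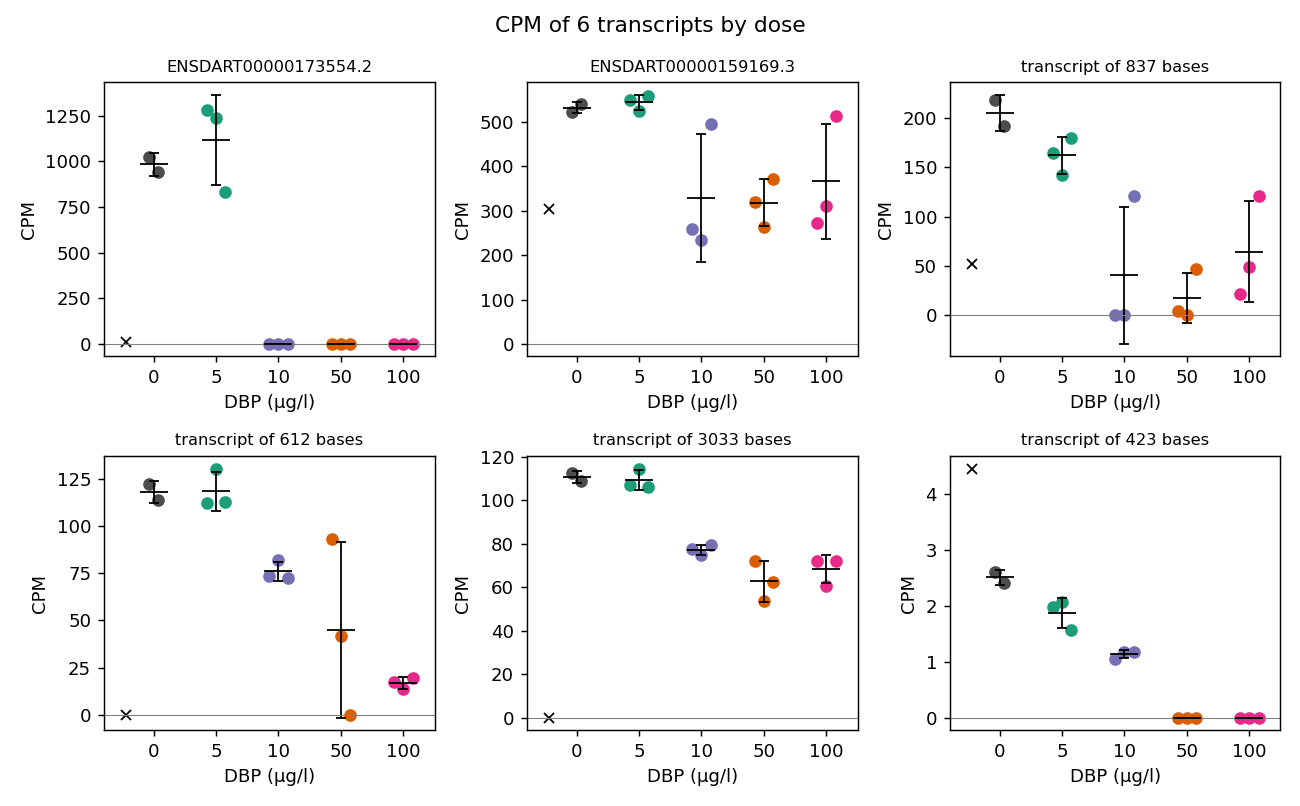
CPM of 6 of the transcripts by DBP concentration, with a point for each library, a black dash at the mean and error bars of 1 SD (2 libraries at 0 μg/l, 3 at each other dose), and a cross for the left-out control 0B. The first transcript is at 0 from 10 μg/l upwards, and the second keeps 2 libraries at 10 to 100 μg/l near 500 CPM. The last has 1.06 to 1.18 CPM at 10 μg/l and 0 at 50 and 100 μg/l.

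In level, 69 of the 136 transcripts had a mean under 5 CPM over the 14 libraries, 12 had at least 50 CPM, and the median was 4.75 CPM against 8.83 CPM in the 25977. In length, the median was 811 bases against 1314, and 61.0% of the set was under 1000 bases against 35.2%. The lengths ran from 69 to 5931 bases. Over the 5 libraries at 0 and 5 μg/l alone, the median of the mean CPM was 9.27 in the set against 9.18. The level over the 14 includes the 9 libraries that the choice required to be low. The set thus held more short transcripts than the table it came from, a difference that was described and not tested. The reverse set of 71 transcripts was short too, with a median of 713 bases, so short length was not particular to this set.

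The values were Salmon's estimated counts, which need not be whole because a read that fits several transcripts is divided among them. Of all counts of the set in the 14 libraries, 35.0% were whole within 1e-06, against 48.1% over the 25977 transcripts. A count of 0 was taken as whole in both shares. The choice favoured low values at 10 to 100 μg/l, so the share of the set is not independent of it. The length that Salmon uses for scaling, the effective length, depends on the library. Its mean was larger at 10 to 100 μg/l than at 0 and 5 μg/l in 92 of the 136 transcripts, or 67.6%, against 39.0% of the 25977. For ENSDART00000173554.2 the mean effective length was 407 bases in the 5 libraries and 538 in the 9. On the TPM scale, which divides by the effective length, 105 of the 136 still did not overlap, and 81 met the whole choice. The part of these lengths in the fall of CPM was not tested.

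The text of the study pairs some transcripts with gene names, of which 11 were read here, and 0 of these 11 belonged to the set. Of the 11, 1 did not overlap in the same direction, that of cdh11, which encodes a cadherin, a cell adhesion protein. Its lowest CPM at 0 and 5 μg/l was 96.6 and its highest at 10 to 100 μg/l was 95.7, and its mean of 105 against 79.6 CPM gave a fold of 1.31, under the threshold. Transcripts of cyp26a1, cyp26b1 and cyp26c1, which encode enzymes that break down retinoic acid, had folds of 0.94, 1.05 and 1.12, and their libraries overlapped. That of rxraa, which encodes a retinoid X receptor, had 9.90 against 7.26 CPM, a fold of 1.36. Its libraries overlapped, with a lowest value of 9.44 CPM at 0 and 5 μg/l and a highest of 9.97 at 10 to 100 μg/l.

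The left-out control is a library without DBP that the choice had not used. In 0B, 35 of the 136 transcripts, or 25.7%, were at or above the lowest of the 5 libraries at 0 and 5 μg/l, against 64.7% of the 25977. It was above all 5 in 17 transcripts, or 12.5%, against 24.1%. It lay within the range of the 9 libraries at 10 to 100 μg/l in 80 transcripts, or 58.8%, less than the 74.6% of the 25977. It was below that range in 8, or 5.88%, against 14.8%, and at 0 in 15, or 11.0%, against 4.70%. In 13 transcripts, or 9.56%, it lay between both ranges, against 0.127% of the 25977, most of which have no gap between the ranges. It was nearer to the mean of the 5 than to that of the 9 in 33.8% of the set, against 37.0% of the 25977. The choice took transcripts by the lowest of these 5 and the highest of the 9. It also required the mean of the 5 to be at least 1.5 times that of the 9. Over those of the 25977 with any count at 10 to 100 μg/l, the median of this fold was 1.02. Shares set against these ranges or means are therefore not independent of the choice, and nothing is read from them. For comparison, 0D was below the 4 other libraries at 0 and 5 μg/l in 27 transcripts, and 0E in 19, but both had been used in the choice. Since 0B is 1 library, these counts carry no test.

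The place of each library between the mean of the 9 (set at 0) and the mean of the 5 (set at 1) was computed for each transcript. Its median over the 136 was 0.90 to 1.09 in the 5 libraries at 0 and 5 μg/l. It was 0.37 in 10C, 0.24 in 100E and 0.23 in 0B, and from -0.16 to -0.02 in the other 7. The middle of the distribution in 0B was wide, with quartiles at -0.09 and 0.69. The 5 libraries set the mark of 1 and were required to be high, so their places near 1 follow from the choice. 0B entered neither the scale nor the choice, so its distance from 0D and 0E carries no test. Of the 129 transcripts with a count at 10 to 100 μg/l, 10C had the highest value of the 9 in 55 and 100E in 33.

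**Figure D3:**
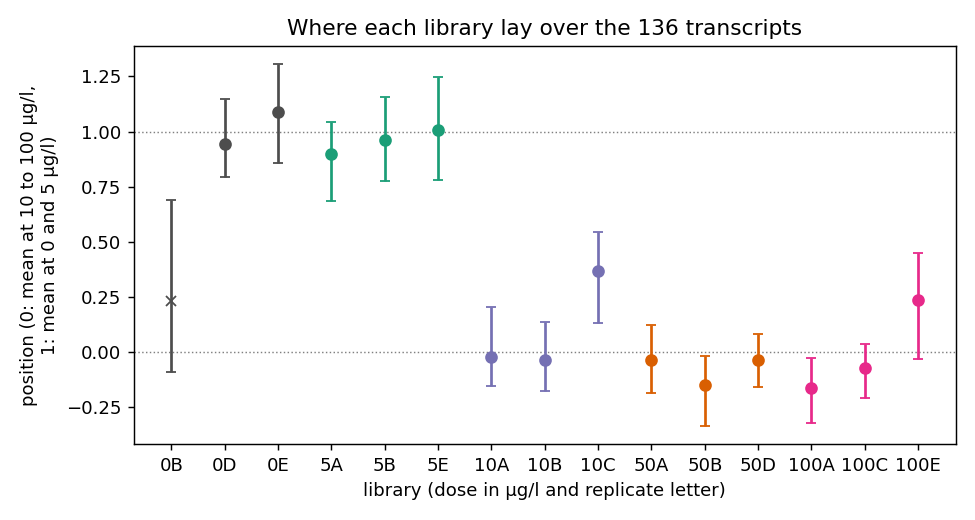
Position of each of the 15 libraries over the 136 transcripts, where 0 is a transcript's mean at 10 to 100 μg/l and 1 its mean at 0 and 5 μg/l; points are medians over the transcripts and bars run from the first to the third quartile. The control 0B is at 0.23, 10C at 0.37 and 100E at 0.24, and the 2 other controls are at 0.94 and 1.09. These 2 controls helped to set the mark of 1 and were required to be high by the choice, and 0B was not.

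The choice set no threshold on differences between doses of the same side, but it bounded them. It required each library at 0 and 5 μg/l to lie above every library at the higher doses. A transcript that had already fallen to their level at 5 μg/l could thus not enter the set. Differences within a side were tested with edgeR's quasi-likelihood test on all 32350 transcripts that passed a filter on low counts. All 136 passed it. The first question was whether the set already differed between 0 and 5 μg/l. With edgeR and Benjamini-Hochberg adjustment, 0 of the 136 were called at an adjusted p under 0.05, against 0.00309% of all tested transcripts. At an unadjusted p under 0.05 there were 2 of 136, or 1.47%, against 2.25% of all tested, and limma and DESeq2 called 0 as well, against 0.0155% and 0.488% of all tested. The median log2 fold change of 5 against 0 μg/l was -0.03 over the set and 0.01 over all transcripts, and with 0B in place of 0D the median over the set turned to 0.22. For ENSDART00000173554.2 it was 0.21, and for ENSDART00000159169.3 it was 0.05, both with an adjusted p of 1. The former was 0.08 without 5A, 0.10 without 0E, 0.13 without 5B, 0.32 without 0D, 0.40 without 5E and 1.29 with 0B in place of 0D. With 2 controls against 3 libraries, a p that misses the threshold does not show equal levels. The result for 5 against 0 μg/l is also partly set by the choice.

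Within the lower side, 50 was compared with 10 μg/l. edgeR called 0 of the 136, against 0% of all tested, and 13 of the 136 (9.56%) had an unadjusted p under 0.05, against 3.86% of all tested. limma called 1, against 0.00618% of all tested lower, and DESeq2 called 4 of the 130 for which it gave a p, against 0.21%, all lower at 50 μg/l. The mean CPM at 50 μg/l was lower than at 10 μg/l in 107 of the 136, or 78.7%, against 67.6% of the 25977. The median log2 fold change was -0.23, and -0.02 over all transcripts. Without 10C the median over the set was 0, and without 100E it was -0.23.

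Between 100 and 10 μg/l, edgeR called 1 of the 136, lower at 100 μg/l, against 0.00618% of all tested in that direction and 0.034% in either. This was a transcript of 423 bases, named after its values were seen, with 2.60 and 2.41 CPM in 0D and 0E and 1.98, 2.07 and 1.57 CPM in 5A, 5B and 5E. It had 1.06, 1.18 and 1.18 CPM in 10A, 10B and 10C, from 22.2, 25.2 and 31.0 counts, and 0 in all 6 libraries at 50 and 100 μg/l. Against the limit of 3 counts per library, its mean at 10 μg/l was at least 6.55-fold higher than at 100 μg/l, and its adjusted p was 0.0158 with edgeR. The call rested on few counts and was lost without any of 0D, 0E, 5A, 5B, 5E or 10A, with adjusted p from 0.0512 to 0.0894. It was also lost with the replicate letter added to the edgeR fit, at an adjusted p of 0.349. limma also called 1 of the 136, against 0.0185% of all tested lower, and DESeq2 called 6 of 130, against 2.79%. In 0B the transcript of 423 bases had 4.45 CPM, above every other library.

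At an unadjusted p under 0.05, 17 of the 136 (12.5%) differed between 100 and 10 μg/l, against 13.8% of all tested, so the share of the set was near that of the table. The libraries at 100 μg/l lay below those at 10 μg/l without overlap in 19 of the 136, or 14.0%, against 11.2% of the 25977, and above them in 0, against 6.69%. The transcript of 612 bases was one of these 19, but its adjusted p with edgeR was 0.417. A transcript of 2091 bases had 30.7, 36.3 and 33.7 CPM at 10 μg/l and 18.4, 16.6 and 22.4 CPM at 100 μg/l, a log2 fold change of -0.77 with an adjusted p of 0.133. A transcript of 838 bases had 5.38, 4.97 and 6.69 CPM at 10 μg/l, 6.08, 0 and 0 CPM at 50 μg/l and 0 in all 3 libraries at 100 μg/l, with an adjusted p of 0.191. For ENSDART00000159169.3 the log2 fold change was 0.19, with an adjusted p of 0.833, and it ran from -0.10 without 100E to 0.59 without 10C, with -0.01 without 10B, 0.07 without 10A and 0.37 without 100A.

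Between 100 and 50 μg/l, edgeR called 0 of the 136, against 0% of all tested, and 10 of the 136 (7.35%) had an unadjusted p under 0.05, against 6.49% of all tested. limma called 0, and DESeq2 called 2 of 130, both higher at 100 μg/l, against 0.348% of all tested higher. The mean CPM was lower at 100 than at 50 μg/l in 46 transcripts, or 33.8%, and higher in 78, while 46.0% of the 25977 were lower. A transcript of 1721 bases had 5.36, 5.12 and 4.25 CPM at 10 μg/l, 0 in all 3 libraries at 50 μg/l, and 3.19, 0 and 1.99 CPM at 100 μg/l. Its adjusted p for 100 against 50 μg/l was 0.720.

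**Figure D4:**
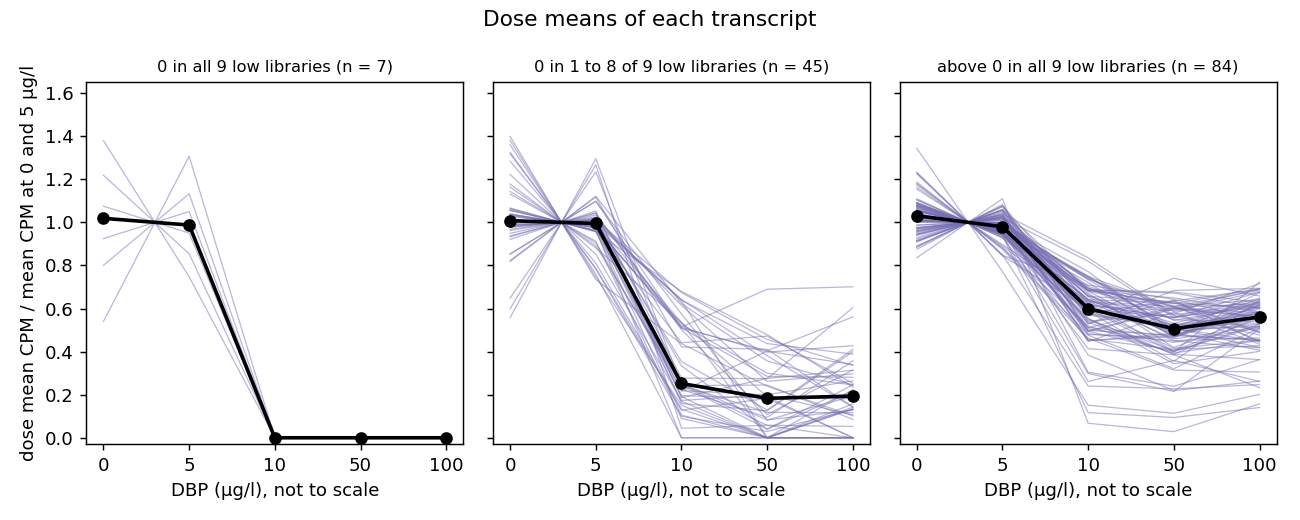
Mean CPM at each DBP concentration divided by the mean at 0 and 5 μg/l, with a thin line for each transcript and a black line for the median, for the 7 transcripts at 0 in all 9 libraries, the 45 at 0 in 1 to 8 and the 84 above 0 in all 9. The medians at 10, 50 and 100 μg/l are 0.25, 0.18 and 0.19 in the middle panel and 0.60, 0.51 and 0.56 in the right panel.

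For the step that the choice had used, 10 to 100 against 0 to 5 μg/l, edgeR called 46 of the 136 lower, beside 0.377% of all tested transcripts lower, a count from which nothing is read. It was 103 without 10C, where 8.22% of all tested were called lower, and 83 without 100E, where 2.12% were. With 0D, 0E, 5A, 5B, 5E, 10A, 10B, 50B or 100C left out singly it was 18 to 27, and 0.0801% to 0.159% of all tested were called lower.

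Spread within a dose was larger on the lower side, both in the set and over the 25977 transcripts. The median coefficient of variation between libraries of one dose over the set was 13.5% in the controls and 14.5% at 5 μg/l, and 28.2%, 27.4% and 32.5% at 10, 50 and 100 μg/l over the transcripts above 0 there. Over the 25977 transcripts the same values were 10.1%, 12.8%, 20.4%, 14.9% and 18.1%. The set had medians of 3.18, 2.39 and 2.88 CPM at the 3 upper doses, where counting error adds to the spread. The choice required each library at 0 and 5 μg/l to lie above every library at the upper doses. It bounded the lower side from above only. The spread of the set is therefore not independent of the choice, and nothing is read from its difference between the sides.

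How sharply the set was bounded could be seen at its thresholds. The 3 transcripts just inside the fold threshold had folds of 1.5005, 1.5006 and 1.506, and the 3 just outside had 1.499, 1.498 and 1.481. For the ratio of the lowest of the 5 to the highest of the 9, the 3 just inside had 1.002, 1.003 and 1.004, and the 3 just outside 0.9994, 0.997 and 0.995. In mean CPM, the 3 just inside had 1.004, 1.013 and 1.065, and the 3 just outside 0.967, 0.965 and 0.953. The transcripts that failed a single condition numbered 165 for the fold, 2813 for the gap between libraries, 19 for the level and 1 for the length, that one of 14637 bases.

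Membership depended on single libraries. With each of the 14 libraries left out in turn, from 132 to 356 transcripts met the choice. It was 356 without 10C, 246 without 100E, 230 without 5A and 205 without 5B, and 135, 136, 132 and 132 of the original 136 were among them. With 10C and 100E left out together, an alternative added after seeing the data, 2009 transcripts met it, the 136 included. With 0B added to the 5, 50 met it, and 48 of the 136 remained.

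**Figure D5:**
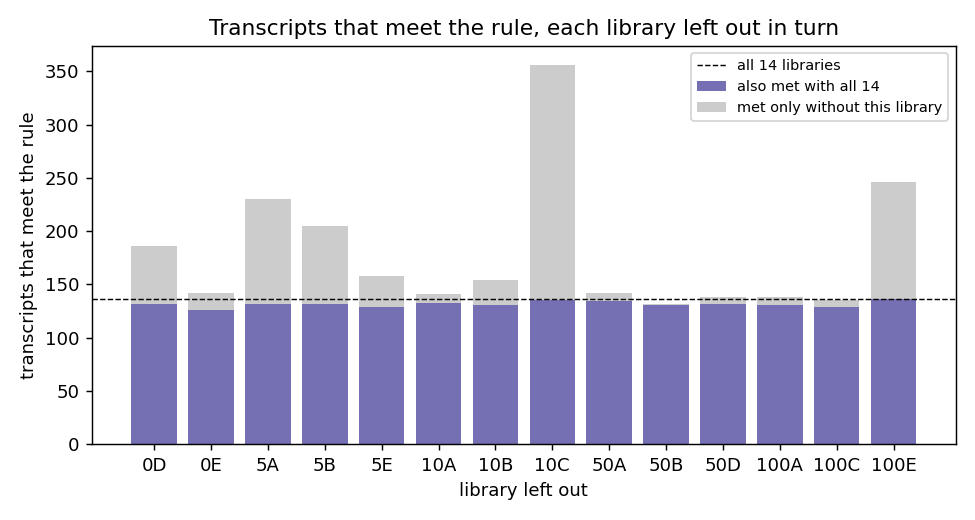
Number of transcripts that met the choice when each of the 14 libraries was left out in turn, with those also met with all 14 libraries in purple and those met only without that library in grey; the dashed line marks 136. The bars for 10C, at 356, and 100E, at 246, are the highest, and each keeps 135 or 136 of the original transcripts.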

How the data were processed

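The authors trimmed single-end reads with Trimmomatic, quantified them with Salmon 1.5.1 on the zebrafish reference transcriptome, and deposited estimated counts per transcript, unscaled for depth, with TPM values, lengths and effective lengths in a file per library. Here, CPM was computed from the counts and column sums. Counts were rounded for edgeR 4.0.16 (TMM scaling, filterByExpr by dose, glmQLFit and glmQLFTest, dose as a factor, 14 libraries in one fit, Benjamini-Hochberg adjustment over all tested transcripts, two-sided, threshold 0.05). limma 3.58.1 on log2(CPM + 0.5) and DESeq2 1.42.0 were alternatives, in R 4.3.3. The fit was tested on simulated data. The study excluded 1 control without naming its replicate, and the labels mark 0D as the outlier. The exclusion was taken as 0B, because 39890 transcripts were detected in the 14 libraries without 0B, the number that the study gives after its exclusion.

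The set, the lists and the tests were chosen with earlier results of these data known. The identifiers printed are the transcript with the highest mean CPM over the 14 libraries and the one with the lowest ratio and highest level. Others are given by level, zeros, thresholds and smallest p. Gene lists, cell type markers and related transcripts of a gene are not analysed here. Limits on a count of 0 cover counting error only.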

Additional observations from a re-analysis of the deposited data

Results flagged for a closer look

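In the control 0B, which the main comparisons left out, 5 of the 136 transcripts had more than 2 times the highest CPM of the 14 other libraries. The same share over the 25977 was not computed, so this count is not shown to be particular to the set. 0B was above all 5 libraries at 0 and 5 μg/l in 12.5% of the set, against 24.1% of the 25977. The transcript of 384 bases had 60.7 CPM in 0B, against at most 17.6 CPM elsewhere. The transcript of 660 bases had 45.5 CPM, against at most 14.2. The transcript of 2061 bases had 78.6 CPM, against at most 27.5. The transcript of 2073 bases had 50.5 CPM, against at most 23.3. The transcript of 69 bases had 7.01 CPM, against at most 3.48. The same library was at 0 in 15 other transcripts of the set, or 11.0%, against 4.70% of the 25977. In these transcripts it was far from the 2 other controls, above them in some and below them in others.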

How the results depend on the processing

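The number of transcripts that met the choice was 125 with median-of-ratios scaling, 145 in TPM, 50 with all 15 libraries, 67 with 0B in place of 0D, 71 with a fold of at least 2, 67 with a mean CPM of at least 5, 132 to 356 with each library left out, and 2009 without 10C and 100E. For 50 against 10 μg/l, 1 was called by limma, 4 by DESeq2, 1 with median-of-ratios scaling, 1 with all 15 libraries and 0 to 2 with each library left out. Over all tested transcripts, these settings called 2, 67, 1, 2 and 0 to 7 lower. For 100 against 10 μg/l, 6 were called by DESeq2, 0 with the replicate letter as a block, 0 without 10C and 100E, and 0 to 3 with each library left out. Over all tested transcripts, these settings called 891, 0, 6 and 0 to 26 lower. For 100 against 50 μg/l, 2 were called by DESeq2 and 0 to 1 with each library left out. The same settings called 111 and 0 to 6 of all tested transcripts higher at 100 μg/l. For 5 against 0 μg/l no alternative called any of the 136. For 10 to 100 against 0 to 5 μg/l, 79 were called by limma, 104 by DESeq2, 26 with all 15 libraries, 10 with 0B in place of 0D, 0 with the replicate block, 114 without 10C and 100E and 18 to 103 with each library left out. Over all tested transcripts, the lower calls were 310 by limma, 1861 by DESeq2, 51 with all 15 libraries and 15 with 0B in place of 0D. They were 0 with the replicate block, 4493 without 10C and 100E and 27 to 2642 with each library left out. Each of these fits tested 31679 to 33689 transcripts. The cause of these differences was not tested.

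Deviations of same-letter libraries correlated over 0.1 in 4 of 14 pairs. Their median correlation was 0.06, against -0.016 over 64 pairs of other letters. Whether the replicate letters pair the libraries was not tested. With the letter as a block, the adjusted p of the 423-base transcript at 100 against 10 μg/l was 0.349, the log2 fold change of ENSDART00000173554.2 at 5 against 0 μg/l was -0.15, and the median over the set there was 0.17. The planned test of other transcripts of the same genes was not run, because the 136 transcripts are not linked to genes here. Low counts and 2 controls limit the precision.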
